A study of Homo sapiens with 5 samples.

Results

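A set of 10 genes of oxidative and carbonyl defense was followed in gefitinib-resistant lung adenocarcinoma cells, namely the aldo-keto reductases AKR1B1, AKR1B10, AKR1C1, AKR1C2 and AKR1C3 and the NRF2 target genes NQO1, HMOX1, GCLM, TXNRD1 and SRXN1. They were chosen by symbol, with earlier results of these data known, as 10 genes among the 37181 entries of the deposited expression table. Where a symbol had several entries, the one with the highest mean over the libraries was used. HCC827 is a human lung adenocarcinoma cell line with an EGFR exon 19 deletion, and HCC827/GR is its gefitinib-resistant derivative, selected with rising doses of this EGFR inhibitor for more than 6 months. Both groups carry the deletion. The 5 RNA-sequencing libraries were replicates 1, 2 and 3 of HCC827/GR and replicates 2 and 3 of gefitinib-sensitive HCC827, and the question was how AKR1B1 and the NRF2-driven genes differ between the resistant and the parental cells. Whether HCC827/GR is a single clone, whether gefitinib was present at harvest and whether the replicates were separate cultures are not given in the sources used here, so p-values measure only the spread between these libraries.

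NRF2, encoded by NFE2L2, is a transcription factor that pairs with small MAF proteins and binds antioxidant response elements near genes of detoxification, glutathione synthesis and NADPH production. In unstressed cells KEAP1 holds NRF2 and hands it to a CUL3 ubiquitin ligase, and BACH1 competes for some of the same elements, above all at HMOX1. The pathway is known in lung adenocarcinoma because KEAP1 and NFE2L2 are mutated in some tumors, and AKR1B10, the AKR1C genes and NQO1 are widely used as readouts of NRF2 activity. Aldo-keto reductases use NADPH to reduce aldehydes and ketones. AKR1B1 is aldose reductase, which turns glucose into sorbitol in the polyol pathway and also has prostaglandin F synthase activity.

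In the resistant cells AKR1B1 and AKR1C2 were the members that passed the test, both higher, and none was lower at that threshold. AKR1C2 was high enough for the test only through its HCC827/GR libraries, so it had to differ between the groups to be tested. The remaining aldo-keto reductases and HMOX1 also had all 3 HCC827/GR libraries above both HCC827 libraries, but AKR1B10, AKR1C3 and HMOX1 did not pass the test and AKR1C1 was too low for it. The canonical NRF2 targets NQO1, GCLM and TXNRD1 did not share this pattern. NQO1 lay slightly below its HCC827 level in every HCC827/GR library, and GCLM and TXNRD1 overlapped between the cell lines. Values are FPKM, fragments scaled to the length of the transcript and the size of the library, so that levels can be compared between genes. A log2 change is the mean log2(FPKM + 1) of HCC827/GR minus that of HCC827, a measure that shrinks the changes of genes near 0.

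The members lie at 7 places in the genome (GRCh38, GENCODE release 29). AKR1B1 (chr7:134442350-134459284, minus strand) and AKR1B10 (chr7:134527592-134541408, plus strand) are neighbors on chromosome 7. AKR1C1 (chr10:4963253-4983283, plus strand), AKR1C2 (chr10:4987400-5018031, minus strand) and AKR1C3 (chr10:5035354-5107686, plus strand) form a cluster on chromosome 10. The others are GCLM (chr1:93885205-93909456, minus strand), TXNRD1 (chr12:104215779-104350305, plus strand), NQO1 (chr16:69706996-69726951, minus strand), SRXN1 (chr20:646615-653370, minus strand) and HMOX1 (chr22:35380361-35394214, plus strand).

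The upstream sequence of AKR1B1 is shown because this gene had the smallest adjusted p of the members, those of AKR1C1 and AKR1C2 because they are nearly the same sequence, and those of GCLM and TXNRD1 because they hold the letters of the antioxidant response element core. Each is the 250 bases before an annotated start, from RefSeq (GRCh38.p14), 5′ to 3′ on the strand of the gene. In AKR1B1, GCLM and TXNRD1, capitals mark TGACNNNGC on either strand, where N is any base. In AKR1C1 and AKR1C2, capitals mark the longest run that the pair shares. The windows are AKR1B1 at chr7:134459101-134459350, AKR1C1 at chr10:4963165-4963414, AKR1C2 at chr10:5003858-5004107, GCLM at chr1:93909431-93909680, and TXNRD1 at chr12:104215529-104215778 for the first start and chr12:104286782-104287031 for the second.
AKR1B1: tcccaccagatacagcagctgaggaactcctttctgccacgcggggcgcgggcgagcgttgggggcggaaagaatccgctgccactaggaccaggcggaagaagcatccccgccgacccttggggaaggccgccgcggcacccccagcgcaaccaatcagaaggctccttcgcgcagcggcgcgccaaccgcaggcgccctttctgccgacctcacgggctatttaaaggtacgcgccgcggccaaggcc
AKR1C1: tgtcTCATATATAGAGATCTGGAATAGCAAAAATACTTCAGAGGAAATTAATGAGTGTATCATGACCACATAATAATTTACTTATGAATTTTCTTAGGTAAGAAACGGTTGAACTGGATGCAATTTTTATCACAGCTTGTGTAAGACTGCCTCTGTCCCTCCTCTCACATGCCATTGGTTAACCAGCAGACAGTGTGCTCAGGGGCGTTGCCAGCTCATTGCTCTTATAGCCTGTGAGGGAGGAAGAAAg
AKR1C2: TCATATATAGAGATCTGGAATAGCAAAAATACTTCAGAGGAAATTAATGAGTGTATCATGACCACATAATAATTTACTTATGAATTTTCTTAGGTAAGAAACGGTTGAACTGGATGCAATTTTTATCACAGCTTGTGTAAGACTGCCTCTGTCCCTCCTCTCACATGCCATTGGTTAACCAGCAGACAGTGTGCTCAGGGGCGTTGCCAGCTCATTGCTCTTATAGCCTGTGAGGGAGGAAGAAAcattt
GCLM: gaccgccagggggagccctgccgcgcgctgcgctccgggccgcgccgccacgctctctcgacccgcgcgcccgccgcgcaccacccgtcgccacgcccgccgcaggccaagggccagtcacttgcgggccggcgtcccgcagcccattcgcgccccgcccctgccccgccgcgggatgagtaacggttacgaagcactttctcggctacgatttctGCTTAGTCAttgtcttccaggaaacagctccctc
TXNRD1 first start: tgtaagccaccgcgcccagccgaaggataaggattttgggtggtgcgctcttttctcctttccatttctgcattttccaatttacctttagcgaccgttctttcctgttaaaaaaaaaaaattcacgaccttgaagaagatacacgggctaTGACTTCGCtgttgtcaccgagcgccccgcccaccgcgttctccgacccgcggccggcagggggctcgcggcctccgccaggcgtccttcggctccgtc
TXNRD1 second start: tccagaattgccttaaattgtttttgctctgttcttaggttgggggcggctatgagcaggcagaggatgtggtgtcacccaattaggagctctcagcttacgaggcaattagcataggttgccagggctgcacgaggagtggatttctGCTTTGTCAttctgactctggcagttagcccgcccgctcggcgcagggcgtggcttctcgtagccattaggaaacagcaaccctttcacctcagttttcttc

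The AKR1C1 and AKR1C2 windows shared a run of 245 bases. RefSeq windows were found for 8 of the 10 members (11 windows in all), and AKR1B10 and HMOX1 had no entry in the table of windows. TGACNNNGC was searched on both strands, and its letters overlap with those of the AP-1 motif TGANTCA. It was present in 3 of the 11 windows, against 10.9% of all 35116 windows. GCLM held GCTTAGTCA 34 bases before the start, the first TXNRD1 start had TGACTTCGC 99 bases before it and the second had GCTTTGTCA 102 bases before it. AKR1B1, AKR1C1, AKR1C2, AKR1C3, NQO1 and SRXN1 had no match in these windows, which says only that the letters are not within 250 bases of the start. The genes with a match, GCLM and TXNRD1, overlapped in expression between the cell lines, as did the entry that holds SRXN1, which had no match. Any link between these letters and expression was not tested.

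Of the 10 members, 9 had an entry of their own name, and 8 reached the mean of 0.5 FPKM that the test required. AKR1C1 lay just outside this threshold at a mean of 0.498 FPKM, and AKR1C2 was the nearest inside it at 1.45 FPKM. AKR1C2 passed only through its HCC827/GR libraries, so it had to differ between the groups to be tested. SRXN1, the enzyme that restores overoxidized peroxiredoxins, had no entry of its own. Its transcript sits in an entry named AL121758.1, which read 7.70 and 8.62 FPKM in HCC827 and 0.814, 0.820 and 10.04 FPKM in HCC827/GR. This joined entry was low in HCC827/GR replicates 1 and 2 and high in replicate 3, and 84.7% of the 50-base stretches of the SRXN1 transcript also occur in AL121758.1, so no value is given for SRXN1 itself.

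By limma's moderated test with Benjamini-Hochberg adjustment, 2 of the 8 tested members were higher at an adjusted p under 0.05 and 0 were lower, against 5.26% of all 16189 tested entries higher and 5.71% lower (11.0% in either direction). The 2 include AKR1C2, which had to differ to be tested, so the count is not read against these shares. At an unadjusted p under 0.05, 5 members were higher and 1 was lower, against 13.4% and 13.8% of all entries. In 5 tested members every HCC827/GR library was above every HCC827 library, a pattern of 22.8% of all entries, in 1 every library was below (23.4% of all entries), and 2 overlapped. The median change of the 8 tested members was 1.04, and that of all entries was 0.0014. Both counts of 5 and this median include AKR1C2, so they are not read against the values of all entries either. The count of called members depended on 4 of the 5 libraries. Without HCC827/GR replicate 3, AKR1B10, AKR1C3 and HMOX1 passed with AKR1B1, and AKR1C2 did not, which makes 4 members. Without HCC827 replicate 2, HCC827 replicate 3 or HCC827/GR replicate 1, AKR1B1 alone passed.

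**Figure D1:**
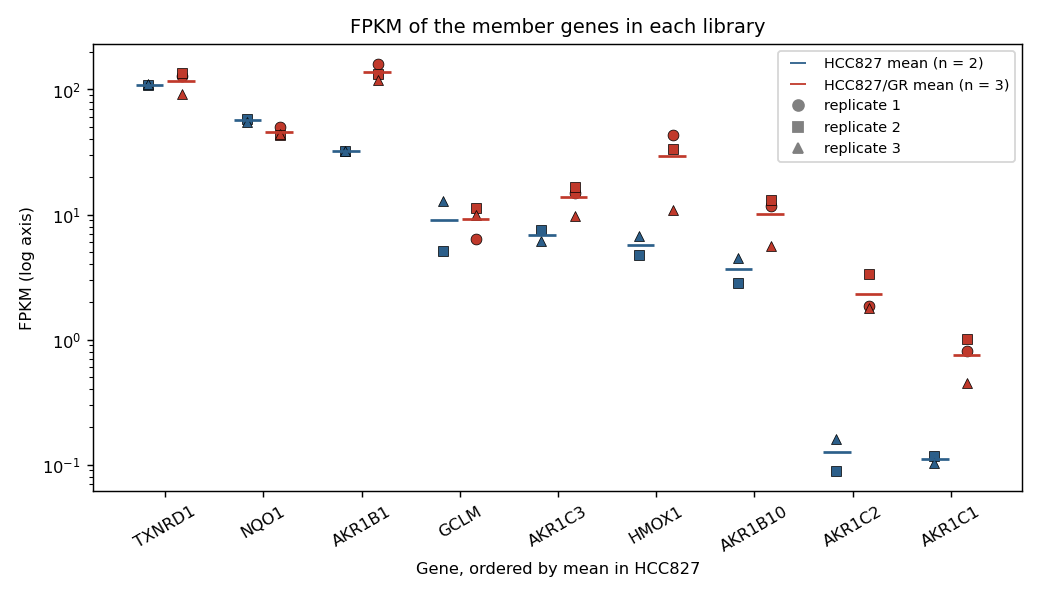
FPKM of each member with an entry of its own name, on a log10 axis, in the 2 HCC827 and 3 HCC827/GR libraries, with 1 point per library and a line at each group mean. AKR1B1 went from 32.2 FPKM on average in HCC827 to 137 FPKM in HCC827/GR, while the points of GCLM and of TXNRD1 overlap between the groups.

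AKR1B1 had 32.2 and 32.3 FPKM in the HCC827 libraries and 159, 133 and 119 FPKM in the HCC827/GR libraries. The 2 parental libraries were almost identical, and the lowest resistant library was 3.69 times the highest parental one. The mean was 32.2 ± 0.0724 FPKM (SD, n = 2) in HCC827 and 137 ± 20.2 FPKM (SD, n = 3) in HCC827/GR, a ratio of 4.25. The log2 change was 2.05 (SE 0.15, 95% interval 1.66 to 2.43) with a limma adjusted p of 0.00521, and 0.587% of the tested entries had a larger log2 change. AKR1B1 passed without each library in turn, with adjusted p-values from 0.0218 to 0.0454. It did not pass in a nested F test written here after the model of Ballgown (2.20, adjusted p = 0.113). In that test 4 entries in all were higher and 9 lower. The paper, which used Ballgown itself, lists AKR1B1 as up in the resistant cells with a q value under 0.05. In all later passages, Ballgown's model means the version written here.

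AKR1B1 moved up in the order of the members. In HCC827 the mean level fell from TXNRD1 (109 FPKM) through NQO1 (56.9 FPKM) to AKR1B1 (32.2 FPKM), each apart from its neighbor in both libraries. GCLM (8.98 FPKM), AKR1C3 (6.84 FPKM) and HMOX1 (5.76 FPKM) followed with overlapping libraries, then AKR1B10 at 3.66 FPKM, and AKR1C2 and AKR1C1 came last at 0.125 and 0.110 FPKM, overlapping each other. In HCC827/GR AKR1B1 (137 FPKM) stood first, with libraries that overlapped those of TXNRD1 (118 FPKM). NQO1 came next at 45.8 FPKM and overlapped with HMOX1 at 29.2 FPKM. AKR1C3, AKR1B10 and GCLM then lay between 9.19 and 13.7 FPKM, each overlapping its neighbor, and AKR1C2 (2.33 FPKM) and AKR1C1 (0.756 FPKM) again came last, apart from each other here.

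AKR1B10 is the closest relative of AKR1B1 among the members and reduces retinal and other aldehydes. It read 2.86 and 4.46 FPKM in HCC827 and 11.7, 13.0 and 5.56 FPKM in HCC827/GR. The groups did not overlap, but HCC827/GR replicate 3 was only 1.25 times the higher parental library, whereas the other two resistant libraries were well above it. The log2 change was 1.20 (SE 0.39, limma adjusted p = 0.134), and without HCC827/GR replicate 3 it was 1.54 (adjusted p = 0.0472). Of the 50-base stretches of the AKR1B10 transcript, 17.7% also occur in other genes, mainly AKR1B15, which read at most 0.022 FPKM in any library. AKR1B1 shared 4.78% with its own pseudogenes.

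AKR1C1, AKR1C2 and AKR1C3 are hydroxysteroid dehydrogenases that act on progesterone, dihydrotestosterone and androstenedione, and AKR1C3 also makes prostaglandin F. AKR1C2 had 0.0889 and 0.161 FPKM in HCC827 and 1.86, 3.35 and 1.78 FPKM in HCC827/GR. Every resistant library was at least 11.0 times the highest parental one, from a very low base. The ratio of the means was 18.6 and the log2 change 1.54 (SE 0.24), with a limma adjusted p of 0.0254. This call did not hold without HCC827 replicate 2 (adjusted p = 0.131), HCC827 replicate 3 (0.112), HCC827/GR replicate 1 (0.0717) or HCC827/GR replicate 3 (0.0565), and it held without HCC827/GR replicate 2 (0.039). Neither did it hold with no filter on low values (0.0651) or in Ballgown's model (0.289). With a pseudocount of 0.1 the log2 change was 3.39 (adjusted p = 0.0144).

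AKR1C1 had 0.116 and 0.104 FPKM in HCC827 and 0.809, 1.01 and 0.451 FPKM in HCC827/GR. All resistant libraries were above the parental ones at levels near the limit of the table, and the log2 change, from the fit with no filter on low values, was 0.65 (SE 0.18, adjusted p = 0.176). AKR1C3 had 7.56 and 6.13 FPKM in HCC827 and 15.0, 16.6 and 9.65 FPKM in HCC827/GR. It was the most abundant AKR1C gene in both cell lines and its groups did not overlap. The log2 change was 0.88 (SE 0.25, limma adjusted p = 0.103), and 1.10 (adjusted p = 0.0434) without HCC827/GR replicate 3. Reads of these genes can be split between them, since 52.2% of the 50-base stretches of AKR1C2, 28.7% of those of AKR1C1 and 12.1% of those of AKR1C3 occur in other genes, mostly in each other. With the FPKM of the 3 genes summed, the log2 change was 1.11 (adjusted p = 0.0624).

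HMOX1 splits heme into biliverdin, carbon monoxide and iron. It read 4.78 and 6.74 FPKM in HCC827 and 43.2, 33.6 and 10.8 FPKM in HCC827/GR. Its resistant libraries differed 4.0-fold among themselves, the widest spread of the members with an entry, and replicate 3 was 1.60 times the higher parental library. The ratio of the means was 5.07, above that of AKR1B1, and the log2 change was 1.97 (SE 0.62, limma adjusted p = 0.124). Without HCC827/GR replicate 3 it was 2.55 (adjusted p = 0.0306). In AKR1B1, AKR1B10, AKR1C1, AKR1C2, AKR1C3 and HMOX1 all resistant libraries were above the parental ones. Replicate 3 was the lowest HCC827/GR library in 6 of these 6, as it was in 40.3% of the 3694 tested entries with this separation. AKR1C1 is not one of the tested entries, and the AKR1C genes can share reads, so the 6 are not separate observations.

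NQO1 reduces quinones by transferring a pair of electrons from NADH or NADPH and is among the most used NRF2 reporters. It had 58.4 and 55.3 FPKM in HCC827 and 50.4, 42.9 and 44.0 FPKM in HCC827/GR. Each resistant library was below both parental ones, and the log2 change was -0.31 (SE 0.11, 95% interval -0.60 to -0.02, limma adjusted p = 0.163). A fall larger than 0.60 and any rise were outside this interval, which is not adjusted for the number of entries. Of its 50-base stretches, 18.1% occur in other genes, mainly the overlapping AC092115.2.

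GCLM is the modifier subunit of the enzyme that starts glutathione synthesis. It read 5.10 and 12.9 FPKM in HCC827 and 6.41, 11.2 and 9.93 FPKM in HCC827/GR. The parental libraries spread 2.52-fold and spanned all resistant ones, and the log2 change was 0.12 (SE 0.42, 95% interval -0.98 to 1.22, adjusted p = 0.892), an interval that contains a change as large as that of AKR1C3. TXNRD1 uses NADPH to reduce thioredoxin. Its main entry, the highest of 5 with this name, read 108 and 111 FPKM in HCC827 and 128, 134 and 91.6 FPKM in HCC827/GR. Replicate 3 of the resistant cells was below both parental libraries and the other two were above. The log2 change was 0.09 (SE 0.20, 95% interval -0.42 to 0.60, adjusted p = 0.824).

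**Figure D2:**
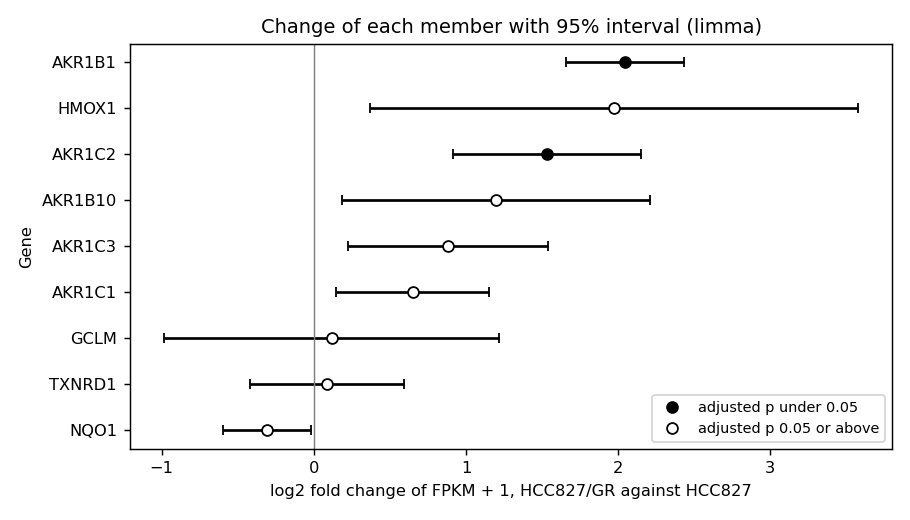
Log2 change of FPKM + 1, HCC827/GR against HCC827, for the members with an entry of their own name. Points are limma estimates and bars 95% intervals that are not adjusted for multiple entries; filled points passed an adjusted p under 0.05. AKR1B1 (2.05) and AKR1C2 (1.54) are filled, HMOX1 (1.97) has the widest bar, NQO1 (-0.31) is the only estimate under 0, and AKR1C1 comes from the fit with no filter. AKR1C2 had to differ between the groups to be tested.

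AKR1B1 was then set against each other member within the same library, as log2(FPKM + 1) of AKR1B1 minus that of the member, over 8 pairs. An exact permutation test over the 10 assignments of 3 and 2 libraries (two-sided) cannot give a p under 0.1, so no pair could pass 0.05. In 7 of 8 pairs the difference was larger in every HCC827/GR library than in every HCC827 library, as it was for 97.5% of the other 16188 tested entries, so the count says little about these members. The contrast was widest against NQO1, where it was -0.84 and -0.76 in HCC827 and 1.64, 1.61 and 1.42 in HCC827/GR. AKR1B1 thus went from below NQO1 in both parental libraries to above it in all resistant ones, and its change was larger by 2.36 (exact p = 0.1, adjusted over the pairs 0.16).

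Against TXNRD1 the difference was -1.71 and -1.75 in HCC827 and 0.31, -0.01 and 0.37 in HCC827/GR, and the change of AKR1B1 was larger by 1.96. Against GCLM it was 2.44 and 1.26 in HCC827 and 4.43, 3.45 and 3.46 in HCC827/GR, larger by 1.93. The margin was 1.16 over AKR1C3 and 1.40 over AKR1C1, and the latter was 0.11 with a pseudocount of 0.1, where AKR1C1 itself changed by 1.97. The ratio of the mean FPKM was 6.88 for AKR1C1, above the 4.25 of AKR1B1. The exact p was 0.1 for each of the TXNRD1, GCLM, AKR1C1 and AKR1C3 pairs, 0.16 when adjusted. The margin over AKR1B10 was 0.85 and that over AKR1C2 was 0.51, each with an exact p of 0.2 (0.229 adjusted). The AKR1C2 margin became -1.32 with a pseudocount of 0.1, so the order of these genes depends on the scale. For HMOX1 the difference was 2.52 and 2.10 in HCC827 and 1.85, 1.96 and 3.35 in HCC827/GR, which overlapped, and the changes differed by 0.07 (exact p = 1). That margin ranged from -0.41 to 0.34 when each library was left out in turn, and HCC827/GR replicate 3 stood apart with the largest difference.

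**Figure D3:**
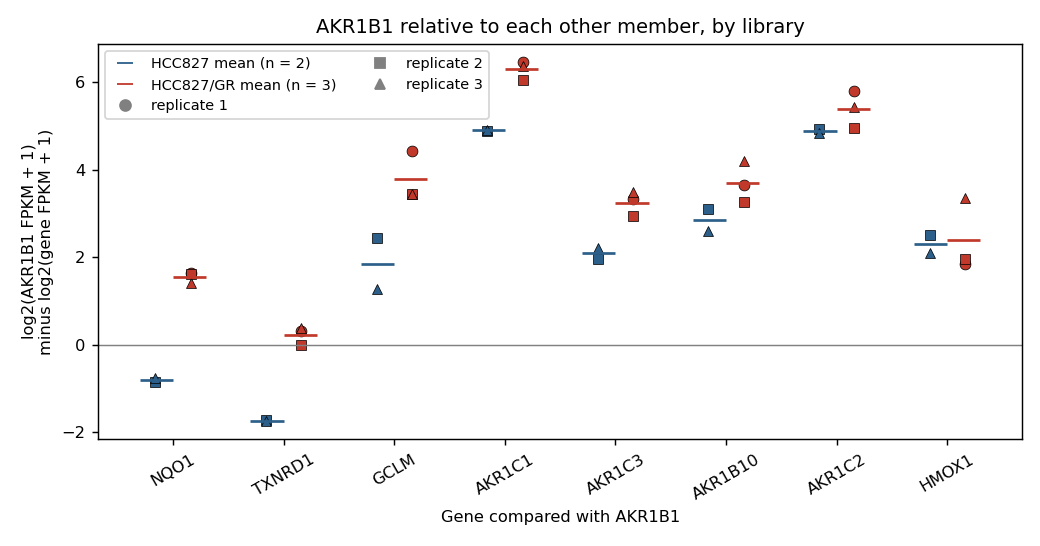
Log2(FPKM + 1) of AKR1B1 minus that of each other member within each library, with 1 point per library and colors for HCC827 and HCC827/GR. The HCC827/GR points lie above the HCC827 points for every member except HMOX1, and the gap is widest for NQO1 (2.36).

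A total of 10 lists of 138 related genes gave the surroundings of the members, and 105 of these genes were tested by limma under their own names. In all 11 were higher (10.5%) and 6 lower (5.71%), beside 5.26% and 5.71% of all entries. The 6 include SLCO2A1, which had to differ between the groups to be tested, so their count is not read against the share. The lists were chosen with earlier results of these data known, so neither is the count of 11. Of the 17, BLVRA, HPGD and SLCO2A1 passed in all 5 fits that left out 1 library, and the other calls were lost in at least 2 of these fits. The number higher ranged from 1, without HCC827 replicate 2, to 8, without HCC827/GR replicate 3, and the number lower from 2, without either HCC827 library, to 4. Without HCC827 replicate 3 and without HCC827/GR replicates 1 and 2, 4, 3 and 7 genes were higher, and without HCC827/GR replicate 2, 3 genes were lower.

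Among 12 tested regulators and relatives of NRF2, 2 were higher and 0 lower, with a median change of 0.13. SQSTM1, an autophagy receptor that binds KEAP1, had 24.3 and 20.9 FPKM in HCC827 and 45.2, 45.0 and 52.7 FPKM in HCC827/GR (log2 change 1.04, adjusted p = 0.0142). NFE2L3, a relative of NRF2, had 2.72 and 2.58 FPKM in HCC827 and 7.09, 5.74 and 6.24 FPKM in HCC827/GR (1.01, adjusted p = 0.0124). Both were separate between the groups, and SQSTM1 passed in 2 and NFE2L3 in 3 of the 5 fits that left out 1 library. Of the 50-base stretches of SQSTM1, 50.7% also occur in MRNIP. KEAP1, the adaptor that marks NRF2 for degradation, overlapped between the groups at 13.8 and 15.7 FPKM in HCC827 and 15.0, 14.7 and 14.1 FPKM in HCC827/GR (-0.01, adjusted p = 0.955). BACH1, the repressor of HMOX1, is in an entry joined with LINC00189. Every HCC827/GR library of that entry was below both HCC827 libraries, a pattern of 23.4% of all entries (-0.20, limma adjusted p = 0.313). The small MAF genes MAFF, MAFG (in an entry joined with SIRT7) and MAFK had changes of 0.07, -0.17 and 0.71 (limma adjusted p = 0.915, 0.735 and 0.055). MAFF and MAFG overlapped, and MAFK was higher in every HCC827/GR library, a pattern of 22.8% of all entries. NFE2L2 itself occurred only in a joined entry named AC019080.1, which read 11.1 and 11.1 FPKM in HCC827 and 4.67, 19.1 and 13.2 FPKM in HCC827/GR and overlapped.

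Genes of glutathione synthesis and recycling had 3 of 6 tested members higher and 0 lower, with a median of 0.47. SLC3A2, the heavy chain that carries the cystine transporter to the membrane, had 49.0 and 58.7 FPKM in HCC827 and 108, 113 and 118 FPKM in HCC827/GR (1.06, adjusted p = 0.0122), and passed in 3 of the 5 fits that left out 1 library. OPLAH, which recycles oxoproline to glutamate, changed by 0.96 (adjusted p = 0.0245), and GGT1, which breaks down glutathione outside the cell, by 0.77 (adjusted p = 0.0185). OPLAH passed in none of the fits that left out 1 library, and GGT1 in 1 of 5. The GGT1 entry also holds SNRPD3, so its change cannot be assigned to GGT1, and 48.9% of the stretches of GGT1 occur in other genes, mostly its pseudogenes and relatives. SLC7A11, the cystine transporter itself and an NRF2 target, overlapped between the groups (0.17, adjusted p = 0.752). GCLC, the catalytic partner of GCLM, was found only in a joined entry, AL033397.1, with a change of -0.04.

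Among 18 glutathione-using enzymes, 1 was higher and 0 lower, with a median of 0.15. That gene was MGST3, a microsomal glutathione transferase, with 9.03 and 9.61 FPKM in HCC827 and 15.9, 17.0 and 15.6 FPKM in HCC827/GR (0.73, adjusted p = 0.0149), and it passed in 1 of the 5 fits that left out 1 library. GSTA1, a transferase of liver and intestine, was listed at 0.102 and 0 FPKM in HCC827 and at 4.84, 12.0 and 2.67 FPKM in HCC827/GR, a wide separation that missed the threshold (2.64, adjusted p = 0.0506). GSTA1 reached 0.5 FPKM only through the HCC827/GR libraries, so it had to differ to be tested. It was named after its values were seen. Of 20 genes of thioredoxin, peroxiredoxin and superoxide metabolism, CAT was higher (0.84, adjusted p = 0.0318), and PRDX6 (-0.67, adjusted p = 0.0411) and SESN2 (-0.83, adjusted p = 0.0476) were lower. Their median was 0.07. CAT is catalase, PRDX6 a peroxiredoxin and SESN2 a stress-induced regulator that is itself described as an NRF2 target. CAT passed only without HCC827/GR replicate 3, and PRDX6 and SESN2 passed in none of the fits that left out a library.

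Of 11 NADPH and pentose phosphate genes, IDH2, a mitochondrial NADPH source, was the only gene called. It had 4.28 and 5.54 FPKM in HCC827 and 12.5, 13.3 and 11.3 FPKM in HCC827/GR (1.18, adjusted p = 0.0134), and the list median was 0.07. IDH2 passed in 2 of the 5 fits that left out 1 library. None of 14 tested genes of other NRF2-linked detoxification and export passed limma's adjusted threshold in either direction, with a median of 0.20. Here PTGR1, ABCC1, ABCC2 and PIR had an unadjusted p under 0.05 with values higher in HCC827/GR, and ABCG2 with values lower. TRIM16L was found only in an entry joined with FBXW10, which is not among the 14. That entry had 1.79 and 1.76 FPKM in HCC827 and 4.26, 3.27 and 4.07 FPKM in HCC827/GR. It passed (0.80, limma adjusted p = 0.0262), but its change cannot be assigned to TRIM16L.

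In the heme and iron list, which borders HMOX1, 2 of 8 tested genes were higher and 0 lower, with a median of 0.01. FTL, the ferritin light chain, had 177 and 171 FPKM in HCC827 and 453, 418 and 377 FPKM in HCC827/GR (1.25, adjusted p = 0.00953), and FTH1, the heavy chain, overlapped (0.02, adjusted p = 0.971). BLVRA, which reduces the biliverdin that HMOX1 makes, had 3.03 and 2.36 FPKM in HCC827 and 7.23, 8.22 and 7.58 FPKM in HCC827/GR (1.24, adjusted p = 0.0102). Unlike HMOX1, these genes were even across the resistant libraries, whose highest value was 1.20 times the lowest for FTL and 1.14 times for BLVRA. FTL passed in 3 of the 5 fits that left out 1 library, and shares 18.3% of its stretches with ferritin pseudogenes.

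None of the 4 other aldo-keto reductases tested passed. AKR1E2, AKR7A2 and KCNAB2 had every HCC827/GR library above both HCC827 libraries, a pattern of 22.8% of all entries. AKR1A1 changed by 0.07, AKR1E2 by 0.18, AKR7A2 by 0.12 and the potassium channel subunit KCNAB2 by 0.30 (adjusted p from 0.183 to 0.774). In the polyol pathway, where AKR1B1 is the first enzyme, SORD, which oxidizes sorbitol to fructose, overlapped at 8.17 and 4.57 FPKM in HCC827 and 4.32, 8.05 and 8.26 FPKM in HCC827/GR (0.10, adjusted p = 0.893). KHK, which phosphorylates fructose, was the only one of 3 tested genes called, at 0.686 and 0.728 FPKM in HCC827 and 2.04, 1.81 and 1.78 FPKM in HCC827/GR (0.75, adjusted p = 0.0203). KHK passed in none of the fits that left out 1 library, and 20.0% of its stretches occur in CGREF1.

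Prostaglandin genes, which border the prostaglandin F activity of AKR1B1 and AKR1C3, had 0 of 9 tested members higher and 4 lower, with a median of -0.57. SLCO2A1, the prostaglandin uptake transporter, had 7.94 and 14.5 FPKM in HCC827 and 0.164, 0.135 and 0.177 FPKM in HCC827/GR (-3.34, adjusted p = 0.00545). It reached 0.5 FPKM only through the HCC827 libraries, so it had to differ to be tested. The count of 4 lower includes it and is not read against the 5.71% of all entries. HPGD, which inactivates prostaglandins after uptake, had 31.2 and 32.0 FPKM in HCC827 and 6.94, 6.40 and 6.22 FPKM in HCC827/GR (-2.12, adjusted p = 0.00196). In each of these genes the groups lay far apart, and every resistant library was below both parental ones. PTGES3, a prostaglandin E synthase and HSP90 co-chaperone, changed by -1.51 (adjusted p = 0.0418) and the cyclooxygenase PTGS1 by -1.29 (adjusted p = 0.00926). PTGES3 passed only without HCC827/GR replicate 1 among the fits that left out a library, and PTGS1 passed in 3 of 5.

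**Figure D4:**
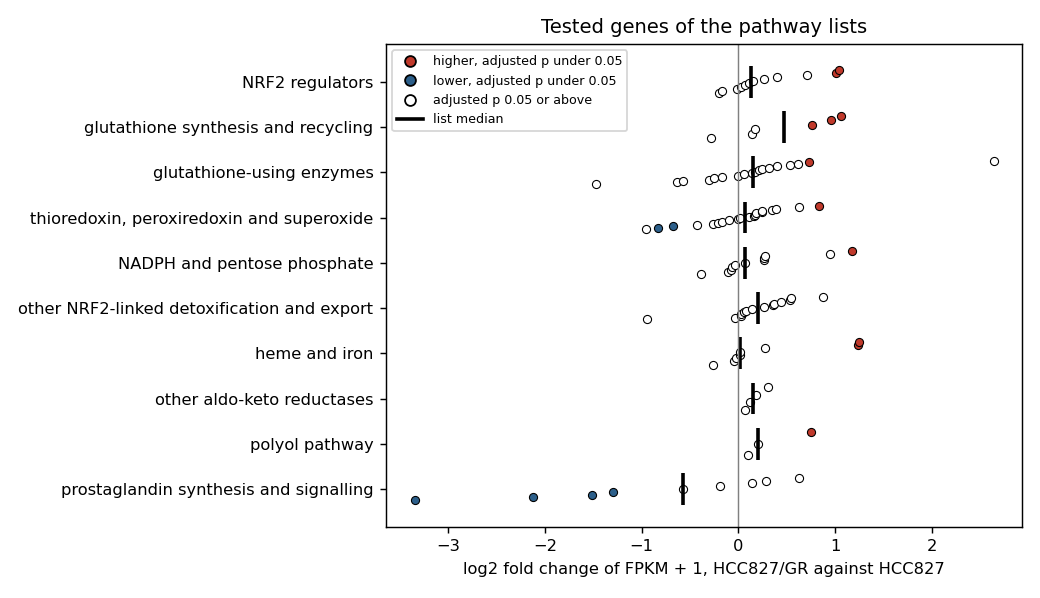
Log2 change of FPKM + 1, HCC827/GR against HCC827, for each tested gene of the 10 lists, with 1 point per gene and a black bar at each list median. Red points were higher and blue points lower at an adjusted p under 0.05. The prostaglandin list reaches furthest down (SLCO2A1, -3.34) and has the lowest median (-0.57). The list labeled NRF2 regulators, which also holds relatives of NRF2, has a median of 0.13. SLCO2A1 had to differ between the groups to be tested.

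AKR1B1 was also compared with all tested entries by the direction and size of its changes. The measure was the root-mean-square distance between centered, unscaled log2(FPKM + 1) values over the 5 libraries. The nearest named entries were CHST9 (0.0828), LIMCH1 (0.0852), HSD3BP5 (0.0884), ALPK2 (0.119) and CLMP (0.131). All 5 were low in HCC827, between 0.00157 and 2.03 FPKM, and between 3.0 and 10.04 FPKM in HCC827/GR. Since log2(FPKM + 1) shrinks changes near 0, their closeness to AKR1B1 depends on this scale. CHST9, HSD3BP5 and ALPK2 reached 0.5 FPKM only through the HCC827/GR libraries, so they had to differ to be tested. None is among the members or lists.

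On chromosome 7 the nearest tested protein-coding genes on the side of lower coordinates from AKR1B1 were CHCHD3, EXOC4 and SLC35B4, with changes of 0.10, 0.39 and 0.58, and on the other side they were AKR1B10, BPGM and CALD1, with 1.20, 0.64 and 0.49. CALD1, a regulator of actomyosin, was the only one of these called, at 3.50 and 3.65 FPKM in HCC827 and 5.37, 5.35 and 5.50 FPKM in HCC827/GR (adjusted p = 0.0319). Around the AKR1C genes, PITRM1, KLF6 and AKR1E2 on one side and NET1, ASB13 and FAM208B on the other had changes between -0.14 and 1.23, and none was called.

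Markers of cell identity also differed between the groups. The summed FPKM of 6 epithelial markers was 1141 to 1265 in HCC827 and 466 to 602 in HCC827/GR, with 6 of 6 at 1 FPKM or more in every library. The sum of 3 lung epithelial markers (NKX2-1, NAPSA and SFTPB) was 17.4 to 21.7 FPKM in HCC827 and 0.907 to 1.77 FPKM in HCC827/GR. PECAM1, an endothelial marker, had 4.34 and 3.32 FPKM in HCC827 and was listed at 0 in all HCC827/GR libraries, and the endothelial sum was 3.38 to 4.44 FPKM against 0.00297 to 0.0333 FPKM. Fibroblast markers (sum 0.787 to 0.998 FPKM in HCC827, 0.775 to 1.17 FPKM in HCC827/GR) and the 4 leukocyte markers found of 5 (31.1 to 39.2 and 33.0 to 38.3 FPKM, CD68 alone at 1 FPKM or more) overlapped. Their part in the differences of the members was not tested, and in bulk RNA fewer cells of a type and less RNA per cell cannot be told apart. FPKM values carry no read counts, so the depth of the libraries is unknown. Median-ratio scaling factors of the libraries lay between 0.997 and 1.03.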

How the data were processed

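The 3 HCC827/GR and 2 HCC827 libraries were read from the deposited gene table, and 1 FPKM column that matched no deposited sample was not used. The FPKM values in it were estimated by the authors (Cutadapt, Bowtie2, TopHat2, StringTie, Ballgown). The submitters' processing notes name hg18, the table holds no coordinates, and positions came from GENCODE release 29 (GRCh38) through Ensembl transcript identifiers. The sample labels speak of a small-RNA, single-end library and the methods of an rRNA-depleted, paired-end mRNA library. FPKM keep no read counts, so no count test, interval or depth per library was available.

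Values were compared as log2(FPKM + 1) with limma 3.58.1 in R 4.3.3 (lmFit, eBayes with a trend, two-sided) over the 16189 entries whose mean reached 0.5 FPKM, with Benjamini-Hochberg adjustment over these entries and a threshold of 0.05. AKR1B1 was set against each member by an exact permutation test over libraries. Shared stretches are 50-base words of the longest GENCODE transcripts. Python 3.11.15, numpy 2.4.6, pandas 2.3.3 and matplotlib 3.10.9 were used. On simulated data for the comparison of the cell lines (16189 entries), limma called 34 of 107 entries changed by 1 on the log2 scale. It also called 68 of 93 changed by 2 and 2 unchanged entries. The changed entries all had a mean log2(FPKM + 1) above 1 and were a smaller share than the 11.0% called in the data. These rates therefore need not hold for the data or for genes near 0. The text names all members, the main NRF2 regulators, up to 3 called genes per list and direction and the other tested aldo-keto reductases. It also names the 5 profiles nearest to AKR1B1 and the 3 nearest tested neighbors on each side. SLC7A11, GCLC, GSTA1, SORD, FTH1, PTGR1, ABCC1, ABCC2, PIR, ABCG2, PTGS1 and TRIM16L were added after their values were seen. The members and lists were chosen with earlier results of these data known.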

Additional observations from a re-analysis of the deposited data

How the results depend on the processing

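Results were recomputed with quantile normalization or median-ratio scaling, with a pseudocount of 0.1, with a filter at 1 FPKM or none, without limma's trend, in Ballgown's model, with a replicate block, after summing the entries of a symbol or the AKR1C genes, and without each library. Chosen after seeing the data were the unfiltered fits of AKR1C1 and the matching of list genes by transcript identifier. Of the member changes under these alternatives, 108 kept their direction and side of the threshold, 10 lost and 3 gained the call, and 4 reversed. Over all entries, 851 were higher and 924 lower, 4 and 9 in Ballgown's model and 0 and 0 with the replicate block (limma; 1676 and 1869 at an unadjusted p under 0.05). Leaving out 1 library gave 202 to 485 higher and 287 to 477 lower, and no filter 575 and 869. The median change of all entries stayed between -0.01 and 0.02.

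In Ballgown's model, AKR1B1 changed by 2.20 (adjusted p = 0.113), AKR1C2 by 1.53 (0.289) and GCLM by -0.23. With the replicate block, AKR1B1 changed by 1.93 (adjusted p = 0.124) and AKR1C2 by 1.63 (0.150). Both gave 0 members higher, 0 pathway genes higher and 0 lower. The deviations of same-numbered libraries correlated with r = 0.0328 and 0.0147. The deviations of the HCC827 libraries mirror each other, so these values cannot show whether same-numbered libraries were handled together. Without the filter AKR1C2 (1.54, adjusted p = 0.0651) did not pass, which left 1 member higher, and with the AKR1C genes summed the change was 1.11 (0.0624). With a pseudocount of 0.1 the margin of AKR1B1 was -1.32 over AKR1C2 and -0.048 over HMOX1. The cause was not tested.

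Leaving out each library in turn gave changes of 0.95 to 1.54 for AKR1B10, 1.33 to 1.65 for AKR1C2, 0.74 to 1.10 for AKR1C3, 1.60 to 2.55 for HMOX1, -0.47 to 0.71 for GCLM and -0.016 to 0.26 for TXNRD1, and a margin of AKR1B1 over HMOX1 of -0.41 to 0.34. It gave 1 to 4 members higher, 1 to 8 pathway genes higher and 2 to 4 lower. Where 1 parental library is left alone, it is assumed to vary like the resistant ones.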
